A study of Mus musculus with 4 samples.

Results

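The 39 mouse Hox cluster genes were examined among the 23946 genes measured in 4 bulk RNA-seq libraries of calvarial bone. The members were chosen by symbol, as every gene named Hoxa, Hoxb, Hoxc or Hoxd followed only by a number, whatever its level, and comprised 11 *Hoxa*, 10 *Hoxb*, 9 *Hoxc* and 9 *Hoxd* genes. The libraries came from the neural crest-derived frontal bone and the mesoderm-derived parietal bone of wild-type mice and of *Twist1*+/- mice, which carry 1 working copy of the gene for the transcription factor Twist1. All mice were on the C57BL/6J background and were at postnatal day 21, with RNA from 12 mice per strain. Each genotype and bone is represented by 1 library, so differences could not be set against the spread of replicates, and no error, p-value or test is given. The study's methods mention replicates, and whether a deposited value stands for a single library or several is not given in the sources used here. The bones still held the pericranium, the bone plate and the dura mater, so every value is a mixture of cell types, in which fewer cells of a type and less RNA per cell cannot be told apart.

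Hox genes encode homeodomain transcription factors that give positional identity along the body axis. They lie in 4 clusters, and the order of the genes in a cluster, counted by paralog number from 1 to 13, follows the order of their anterior limits of expression in the embryo, with low paralog numbers reaching furthest toward the head. The skeleton of the face and the front of the skull is built by cells that lack Hox expression, whereas the hindbrain, the neck, the trunk and the limbs express nested sets of these genes. Some Hox genes, including *Hoxa9* and *Hoxb4*, are also known for their roles in blood stem and progenitor cells, which the marrow of postnatal bone contains.

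Values are FPKM, that is, fragments normalised to transcript length and to the mapped reads, so levels of different genes can be compared within a library. The libraries held 18063 to 19452 genes above 0, with a median over all genes of 1.85 to 2.50 FPKM. Depth was read from the lowest steps of the values of genes with 1 coding transcript, and by this reading the wild-type frontal library was the deepest. For a transcript of the median Hox length, 2.461 kb, 1 FPKM stood for about 98.6 reads there, 58.8 in the wild-type parietal library, 74.1 in the *Twist1*+/- frontal library and 57.2 in the parietal library labelled *Twist1*+/-. These are approximate, since the annotation is not the one used for the values. By this reading 1 read was worth 1.68 times as many FPKM in the wild-type parietal as in the wild-type frontal library. A pairwise reading of genes at low levels disagreed, gathering weakly at 0.865 (9.70% of 608 genes near it), so which of these 2 libraries is deeper, and every number of reads given for them, is uncertain. *Twist1* itself was at 59.0 FPKM in the wild-type frontal, 30.4 in the *Twist1*+/- frontal, 52.5 in the wild-type parietal and 50.7 in the parietal library labelled *Twist1*+/-, which its *Twist1* level does not set apart from wild type and which is therefore named by its label throughout. Of 11 markers of osteoblasts and osteocytes, 9 were at or above 1 FPKM in every library, with *Bglap*, which encodes osteocalcin, between 5220 and 7982 FPKM. The other 2, *Col1a1* and *Col1a2*, the chains of type I collagen, are listed at 0 in every library but wild-type parietal bone, so a value of 0 in these files can be a failed estimate and is written here as listed at 0.

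Hox expression was low in all 4 libraries, and 1 member, *Hoxd8*, was at or above 1 FPKM in each of them. In wild-type frontal, wild-type parietal and *Twist1*+/- frontal bone it was the only member that reached this level. In the parietal library labelled *Twist1*+/- *Hoxb2* reached it as well, by a narrow margin, at 1.002 FPKM. These 1 or 2 members are 2.56% or 5.13% of the 39, whereas 54.7% to 58.7% of all genes reached 1 FPKM. The FPKM summed over all 39 members was 2.58 in the wild-type frontal, 3.96 in the wild-type parietal, 3.56 in the *Twist1*+/- frontal and 5.05 in the parietal library labelled *Twist1*+/-.

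**Figure D1:**
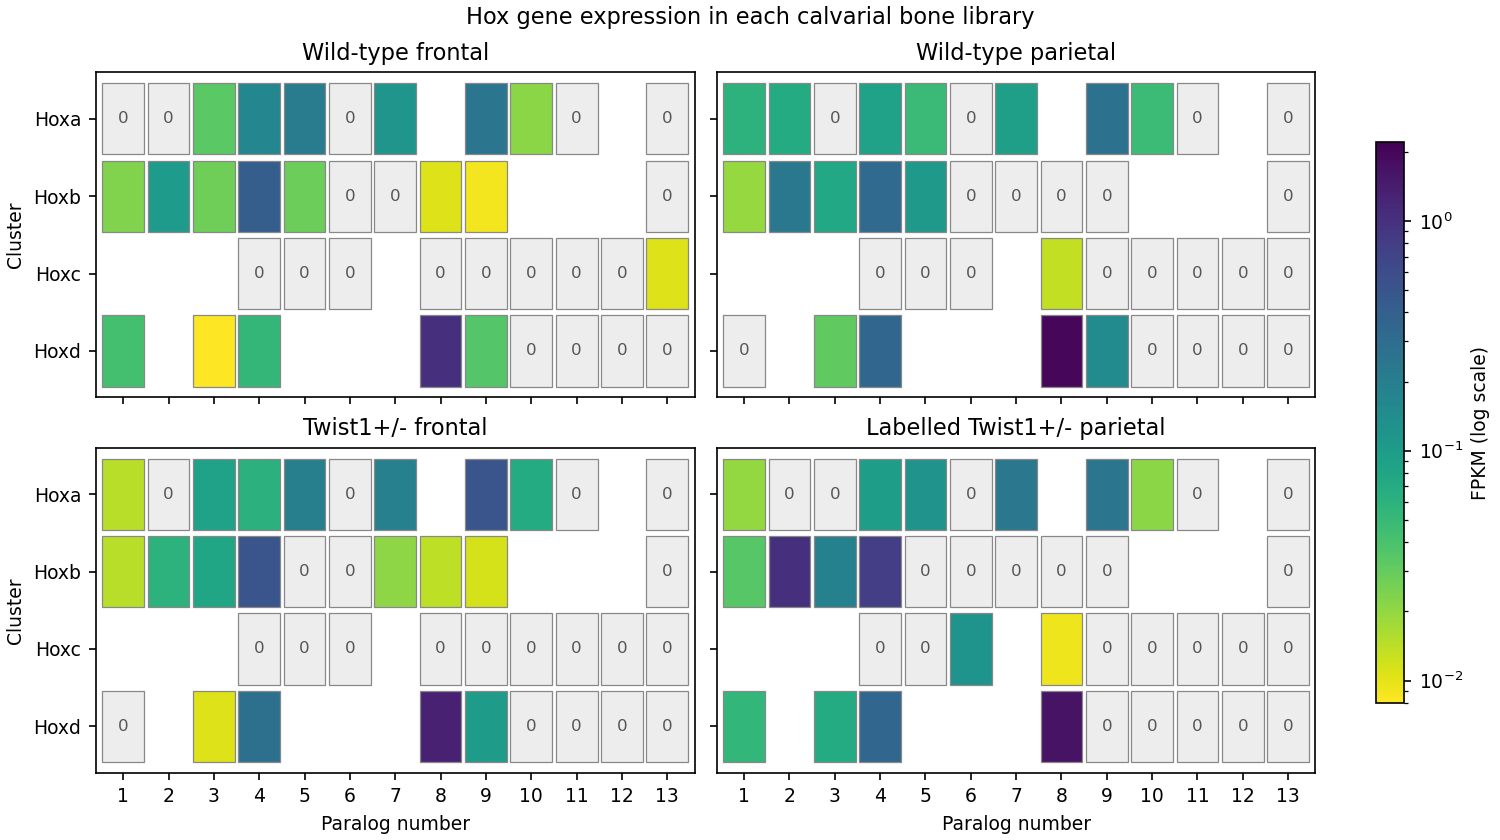
FPKM of the 39 Hox genes in each of the 4 libraries, by cluster (rows) and paralog number (columns), with colour on a log scale, grey cells marked 0 for members listed at 0 and blank where the cluster has no such gene. Values above 0 lie mainly at paralog numbers 1 to 9 of *Hoxa*, *Hoxb* and *Hoxd*, and the darkest cell of every panel is *Hoxd8*.

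The members listed at 0 in every library lay mainly at the posterior end of the clusters. There were 15 of them, or 38.5% of the members against 15.3% of all genes. By paralog number they were 0 of the 8 members numbered 1 to 3, 4 of the 15 numbered 4 to 8, and 11 of the 16 numbered 9 to 13. These 11 were *Hoxa11*, *Hoxa13*, *Hoxb13*, *Hoxc9*, *Hoxc10*, *Hoxc11*, *Hoxc12* and *Hoxd10* to *Hoxd13*, genes known for patterning the posterior trunk and the limbs, and the other 4 were *Hoxa6*, *Hoxb6*, *Hoxc4* and *Hoxc5*. Another 12 members were above 0 in every library, which is 30.8% of the members against 71.4% of all genes. They were *Hoxa4*, *Hoxa5*, *Hoxa7*, *Hoxa9*, *Hoxa10*, *Hoxb1* to *Hoxb4*, *Hoxd3*, *Hoxd4* and *Hoxd8*. Without the parietal library labelled *Twist1*+/-, 16 members were at 0 and 13 above 0 in all of the other libraries, and without wild-type parietal bone 16 and 12.

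The remaining 12 members were at 0 in some libraries only, and most of them were within a few reads of 0. A level of 3 reads for a transcript of the median Hox length corresponds to 0.0304 FPKM in the wild-type frontal, 0.0510 in the wild-type parietal, 0.0405 in the *Twist1*+/- frontal and 0.0524 in the parietal library labelled *Twist1*+/-. Of all 39 members, 8, 5, 6 and 4 in that order were at or under it but above 0, and 11, 12, 12 and 12 were above it. The 12 members at 0 in some libraries only rested on at most about 8.12 reads in any library. Differences in which of them are listed at 0 were not tested.

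The clusters differed in level, and the *Hoxc* cluster was close to 0 throughout. No *Hoxc* gene was above 0 in every library, and the summed *Hoxc* level was 0.0107 FPKM in the wild-type frontal, 0.0133 in the wild-type parietal, 0 in the *Twist1*+/- frontal and 0.129 in the parietal library labelled *Twist1*+/-. The *Hoxd* cluster had the highest sum in every library, with 1.15, 2.51, 1.70 and 2.15 FPKM in the same order, most of it *Hoxd8*. The *Hoxa* sum was 0.801, 0.677, 1.14 and 0.750 FPKM, and the *Hoxb* sum 0.621, 0.757, 0.717 and 2.02 FPKM. The *Hoxb* sum was thus highest in the parietal library labelled *Twist1*+/-, and the *Hoxa* sum in the *Twist1*+/- frontal library. Members numbered 4 to 8 held 67.5% to 78.2% of the summed Hox FPKM in each library, which includes *Hoxd8*.

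*Hoxd8* lies on chromosome 2 of mm9 at chr2:74542672-74545990, on the forward strand. The 250 bases upstream of its start are given beside those of *Hoxd4*, a neighbour in the middle of the same cluster that was above 0 in every library, and *Hoxd13*, at the posterior end, which is listed at 0 in every library. They come from the RefSeq promoter windows of mouse (GRCm38.p6), which held 22 of the 39 members, and each matched mm9 exactly once, on the forward strand and outside every annotated exon, at chr2:74559785-74560034 for *Hoxd4*, chr2:74542422-74542671 for *Hoxd8* and chr2:74506032-74506281 for *Hoxd13*. The windows of *Hoxd4* and *Hoxd8* end directly before the gene start of the annotation used for positions. That of *Hoxd13* ends short of it, since the gene starts there at chr2:74506367. Capitals mark the letters CANNTG, the E-box that basic helix-loop-helix factors such as Twist1 are known to bind, which reads the same on both strands.
*Hoxd4*: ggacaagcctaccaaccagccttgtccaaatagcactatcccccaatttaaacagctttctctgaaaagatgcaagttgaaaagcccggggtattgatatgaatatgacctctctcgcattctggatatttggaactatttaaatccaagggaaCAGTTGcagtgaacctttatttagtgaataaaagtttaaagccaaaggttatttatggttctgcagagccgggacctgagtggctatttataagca
*Hoxd8*: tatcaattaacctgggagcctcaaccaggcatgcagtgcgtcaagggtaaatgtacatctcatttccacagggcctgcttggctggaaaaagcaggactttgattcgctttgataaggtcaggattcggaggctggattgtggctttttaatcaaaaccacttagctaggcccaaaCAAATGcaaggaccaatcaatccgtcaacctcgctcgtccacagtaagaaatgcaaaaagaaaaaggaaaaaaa
*Hoxd13*: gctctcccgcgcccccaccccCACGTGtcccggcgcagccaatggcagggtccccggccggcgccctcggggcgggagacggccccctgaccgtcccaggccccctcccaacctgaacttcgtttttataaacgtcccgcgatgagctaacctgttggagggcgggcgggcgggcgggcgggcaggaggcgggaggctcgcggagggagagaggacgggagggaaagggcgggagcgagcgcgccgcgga
Each of the 3 windows held CANNTG once. The letters are common: 70.8% of the 24 Hox windows and 66.2% of all 32851 windows of the same length held them at least once, and a match is not evidence of binding. The windows differed in base composition, with a GC content of 40.4% and 3 CG dinucleotides for *Hoxd4*, 44.4% and 6 for *Hoxd8*, and 74.4% and 31 for *Hoxd13*. Over the Hox windows the median was 58.6% GC and 12.5 CG dinucleotides, against 52.4% and 6 over all windows.

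*Hoxd8* was the highest member in every library. Its level was 1.01 FPKM in the wild-type frontal, 1.99 in the wild-type parietal, 1.31 in the *Twist1*+/- frontal and 1.67 in the parietal library labelled *Twist1*+/-, corresponding to about 106, 125, 104 and 103 reads. Both parietal libraries were above both frontal libraries. It held 39.1%, 50.1%, 36.7% and 33.1% of the summed Hox FPKM in the same order, and between 42.9% and 50.6% of all genes had a lower level in the same library, so the highest Hox gene stood near the middle of the genes. No coding transcript of another gene shares a stretch of 75 bases with its transcript, and noncoding transcripts were not searched. Summed markers of 4 of the 14 cell types and tissues listed stood in the same order over the libraries as *Hoxd8*, from wild-type frontal through *Twist1*+/- frontal and the parietal library labelled *Twist1*+/- to wild-type parietal bone. They were skeletal muscle (13 genes, 94.1, 1055, 1450 and 2351 FPKM, with *Myf5* at 0 in the wild-type frontal library), adipocytes (5 genes, 202 to 392 FPKM), cartilage (6 genes, 11.9 to 32.3 FPKM) and endothelium (5 genes, 99.7 to 110 FPKM). Within each of the 4 lists not every marker followed the sum. *Mb* of the muscle list was at 87.2 FPKM in the wild-type parietal and 261 in the parietal library labelled *Twist1*+/-. *Myog* was at 4.93 FPKM in the *Twist1*+/- frontal and 1.96 in the wild-type parietal library. The adipocyte sum was mostly *Fabp4*, while *Adipoq* was at 15.2 FPKM in the wild-type frontal and 2.63 in the wild-type parietal library. *Sox9* of the cartilage list was at 4.54 and 2.15 FPKM in these libraries, and the endothelial markers *Cdh5*, *Tek* and *Kdr* were also lower in the parietal one. Their part in the level of *Hoxd8* was not tested.

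*Hoxb4*, on chromosome 11 at chr11:96177998-96182952, was the next highest member by its mean over the libraries. It was at 0.419 FPKM in the wild-type frontal, 0.323 in the wild-type parietal, 0.515 in the *Twist1*+/- frontal and 0.792 in the parietal library labelled *Twist1*+/-, or about 69.6, 32.0, 64.3 and 76.5 reads. In each bone the library labelled *Twist1*+/- was above wild type. *Hoxa9*, the highest *Hoxa* gene, lies on the reverse strand of chromosome 6 at chr6:52173099-52181088. Its level was 0.247, 0.270, 0.514 and 0.249 FPKM in the same order, so *Twist1*+/- frontal bone stood above 3 libraries that were close together. Summed markers of blood progenitors (12 genes, each above 0 in every library) were 580, 223, 626 and 531 FPKM in that order, which is the order of neither gene. The sum was mostly *Mpo*, *Elane* and *Prtn3*, whereas *Cd34* was higher in the wild-type parietal (82.4 FPKM) than in the wild-type frontal library (29.0 FPKM). *Gata2* of this list, at 3.54, 1.42, 4.93 and 4.95 FPKM, did have the order of *Hoxb4*. So did the summed markers of keratinocytes and hair and of nasal and airway epithelium. Not each of their markers followed, *Krt10* and *Reg3g* among those that did not. The part of any of these cells in either gene was not tested.

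*Hoxb2*, which is known for patterning the hindbrain and the neural crest that leaves it, lies at chr11:96212946-96217003 on the forward strand. It was at 0.104 FPKM in the wild-type frontal, 0.234 in the wild-type parietal, 0.0602 in the *Twist1*+/- frontal and 1.0 in the parietal library labelled *Twist1*+/-, corresponding to about 13.7, 18.5, 5.99 and 77.0 reads. The parietal library labelled *Twist1*+/- stood apart from the other 3. Its transcript shares no stretch of 75 bases with a coding transcript of another gene, and noncoding transcripts were not searched. Its exons overlap *Hoxb3os*, a transcript of the opposite strand. The libraries were stranded, whereas the strand setting of the quantification is not given in the sources used here, and reads of the pair cannot then be told apart. *Hoxb3*, its neighbour in the cluster and named after its values were seen, overlaps the same transcript and was at 0.0274, 0.0765, 0.0801 and 0.191 FPKM in the same order, also highest in the parietal library labelled *Twist1*+/-.

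**Figure D2:**
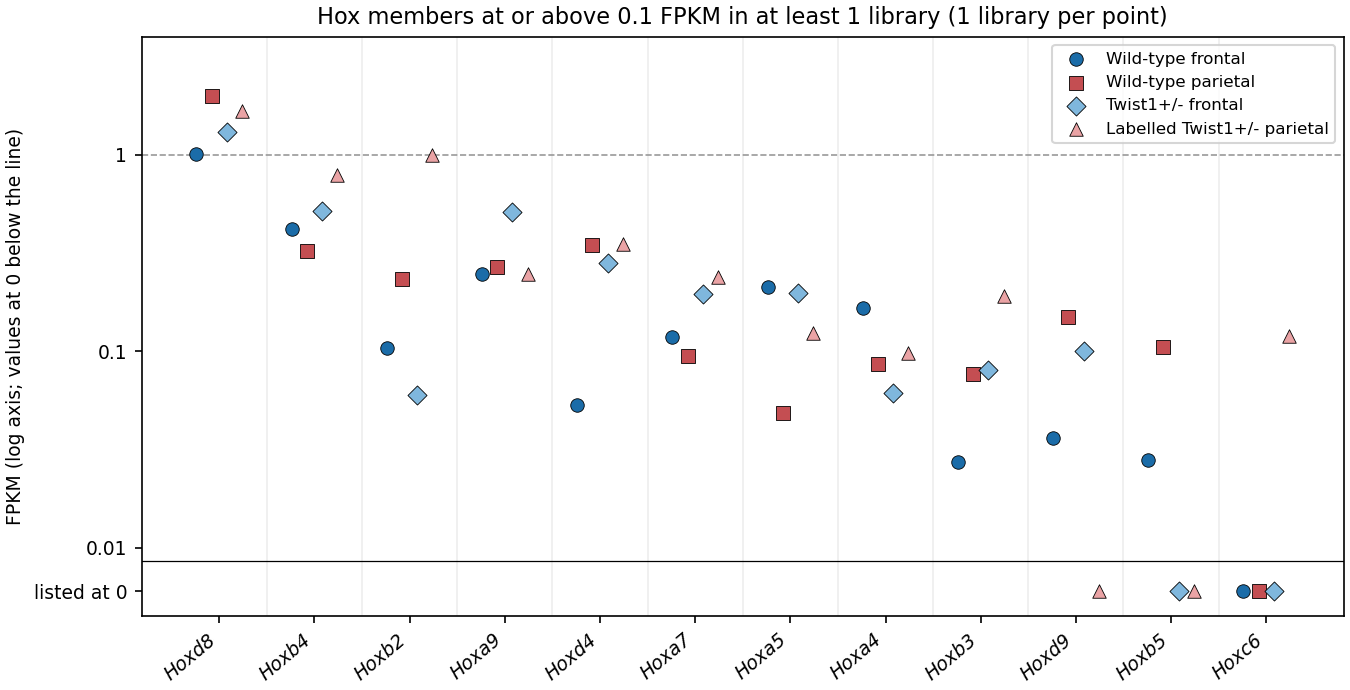
FPKM on a log axis of the 12 Hox genes that reached 0.1 FPKM in any library, ordered by mean level, with 1 point per library and values listed at 0 drawn below the line. *Hoxd8* lies at or above 1 FPKM in every library, and *Hoxb2* reaches 1.0 FPKM in the parietal library labelled *Twist1*+/- from 0.234 or less in the others.

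In all, 3 of the members at low level were at or above 0.1 FPKM in a library and listed at 0 in another. *Hoxb5* was at 0.0281 FPKM in the wild-type frontal and 0.105 in the wild-type parietal library and at 0 in both libraries labelled *Twist1*+/-. *Hoxd9* was at 0.0362, 0.149 and 0.0999 FPKM in the wild-type frontal, wild-type parietal and *Twist1*+/- frontal bone and at 0 in the parietal library labelled *Twist1*+/-. *Hoxc6* was at 0.119 FPKM in the parietal library labelled *Twist1*+/- and at 0 in the other 3. All 3 values rest on few reads, at most about 7.03 for *Hoxb5*, 7.78 for *Hoxd9* and 4.66 for *Hoxc6*, and no fold is given against a value of 0.

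The comparison of the parietal library labelled *Twist1*+/- with wild-type parietal bone was designed to set the *Twist1*+/- genotype against wild type in mesoderm-derived bone, and every direction in it rests on the label. The call required a ratio above 3-fold with at least 1 FPKM in the library where the gene was higher. Of the 2 members that reached 1 FPKM, *Hoxb2* was called, 4.29-fold higher (log2 ratio 2.10). Its higher value, 1.002 FPKM, was only just above the floor of the call. Among the 13914 genes that reached 1 FPKM, 8.19% were called in either direction and 5.25% upward. *Hoxd8* was not called, at 1.67 against 1.99 FPKM (log2 ratio -0.25). Its log2 ratio was 0.15 with scaling to *Gapdh* and -0.55 when the median of genes near in GC content was taken off. With a floor of 0.1 FPKM, 4 of 11 members differed by more than 3-fold against 15.0% of all genes, *Hoxb2* and *Hoxc6* upward (9.46% of all genes) and *Hoxb5* and *Hoxd9* downward (5.49%). The 3 besides *Hoxb2* are those listed at 0 in 1 of the libraries compared. Of the 17554 genes behind the 15.0%, 13914 reached 1 FPKM and held 1139 of the 2625 calls. Genes between the 2 floors, where most of the 11 members lay, were thus called more often than 15.0%. In the other comparisons too, genes that reached 1 FPKM were called less often than those between the floors. Over all 39 members, 11 were higher, 8 lower and 20 equal, all of the last listed at 0 in both libraries. The median difference in log2(FPKM + 0.1) was therefore 0 whatever the other members did, and the median over all genes was also 0. Marker sums differed widely between these 2 libraries, and 9 of the 14 were higher in the one labelled *Twist1*+/-. The sum for neurons and glia was 70.4 FPKM in the wild-type and 366 in the other, with 5 of 9 genes called higher. *Gap43* of that list was lower, at 9.04 and 6.17 FPKM. The sum for blood progenitors was 223 and 531 FPKM, with 3 of 12 genes called higher. There *Cd34* (82.4 and 51.1 FPKM) and *Hlf* (4.20 and 3.43 FPKM) were lower. The sums of 2 lists were higher in the parietal library labelled *Twist1*+/- than in any other library. These were keratinocytes and hair (8 genes, 3.24, 3.09, 7.36 and 11.7 FPKM from wild-type frontal and parietal to the *Twist1*+/- libraries, *Dsg1a* at 0 in all) and nasal and airway epithelium (7 genes, 282, 21.0, 1405 and 1571 FPKM, *Scgb1a1* at 0 in all). In the keratinocyte list 4 genes were called higher between the parietal libraries, while *Krt1* was at 0.403 in the wild-type and 0.157 FPKM in the other. The part of any of these lists in the level of *Hoxb2* was not tested.

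In the frontal bone, which is of neural crest origin, no Hox gene passed the same threshold. Only *Hoxd8* reached 1 FPKM, at 1.31 in *Twist1*+/- against 1.01 in wild-type bone (log2 ratio 0.37), and 0 of 1 member was called against 3.89% of 14341 genes. With a floor of 0.1 FPKM, 1 of 8 members was called, upward, against 10.6% of all genes in either direction and 8.63% upward. It was *Hoxd4*, which was chosen for naming after its values were seen, at 0.283 against 0.0532 FPKM, 5.31-fold higher, a difference of 1.32 in log2(FPKM + 0.1), which is below 3-fold. *Hoxd4* shares 40.6% of its stretches of 75 bases with *Hoxd3*, so reads may have been divided between these neighbours, and its level in the wild-type frontal library rested on about 5.45 reads. *Hoxa9* was 2.08-fold higher (0.514 against 0.247 FPKM) and *Hoxb2* lower at 0.0602 against 0.104 FPKM (log2 ratio -0.79). Of the 39 members 14 were higher, 7 lower and 18 equal.

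Between wild-type parietal and wild-type frontal bone, the contrast of embryonic origin, *Hoxd8* was 1.97-fold higher in parietal bone (log2 ratio 0.98) and was not called. Thus 0 of 1 member that reached 1 FPKM was called, against 13.3% of 14214 genes. With a floor of 0.1 FPKM, 4 of 10 members were called against 19.3% of all genes, 3 of them upward (6.21% of all genes) and 1 downward (13.1%). The 19.3% includes the genes that reached 1 FPKM, of which 13.3% were called. *Hoxd4* (0.348 against 0.0532 FPKM, 6.54-fold), *Hoxd9* (0.149 against 0.0362 FPKM, 4.12-fold) and *Hoxb5* (0.105 against 0.0281 FPKM, 3.72-fold) were higher in parietal bone. *Hoxa5* was 4.38-fold lower in parietal bone, at 0.0487 against 0.213 FPKM, or about 2.18 against 16.0 reads, and like *Hoxd4* was chosen for naming after its values were seen. With 0.1 FPKM added to each value, the difference of *Hoxd4* was 1.55, of *Hoxa5* -1.08, of *Hoxd9* 0.87 and of *Hoxb5* 0.68 on the log2 scale, and none of these 4 remained over 3-fold. Of the *Hoxd* genes, *Hoxd3*, *Hoxd4*, *Hoxd8* and *Hoxd9* were higher in the parietal library, and *Hoxd1* was lower (0 against 0.0427 FPKM). Between the *Twist1*+/- bones *Hoxd9* went the other way, at 0 in the parietal against 0.0999 FPKM in the frontal library. Of the 39 members 12 were higher in parietal bone, 10 lower and 17 equal.

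Between the bones of the *Twist1*+/- strain, *Hoxb2* was 16.6-fold higher in the parietal library labelled *Twist1*+/- than in the *Twist1*+/- frontal library (log2 ratio 4.06), and *Hoxd8* was not called, at 1.67 against 1.31 FPKM. The 1 call among 2 members stands against 4.09% of 14305 genes in either direction and 0.846% upward. With a floor of 0.1 FPKM, 2 of 9 members were called, *Hoxb2* and *Hoxc6*, both upward, against 10.8% of all genes in either direction and 1.99% upward. The 10.8% includes the genes that reached 1 FPKM, of which 4.09% were called. Over the 39 members, 13 were higher, 8 lower and 18 equal. The 4 comparisons share libraries, so they are not independent of each other.

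**Figure D3:**
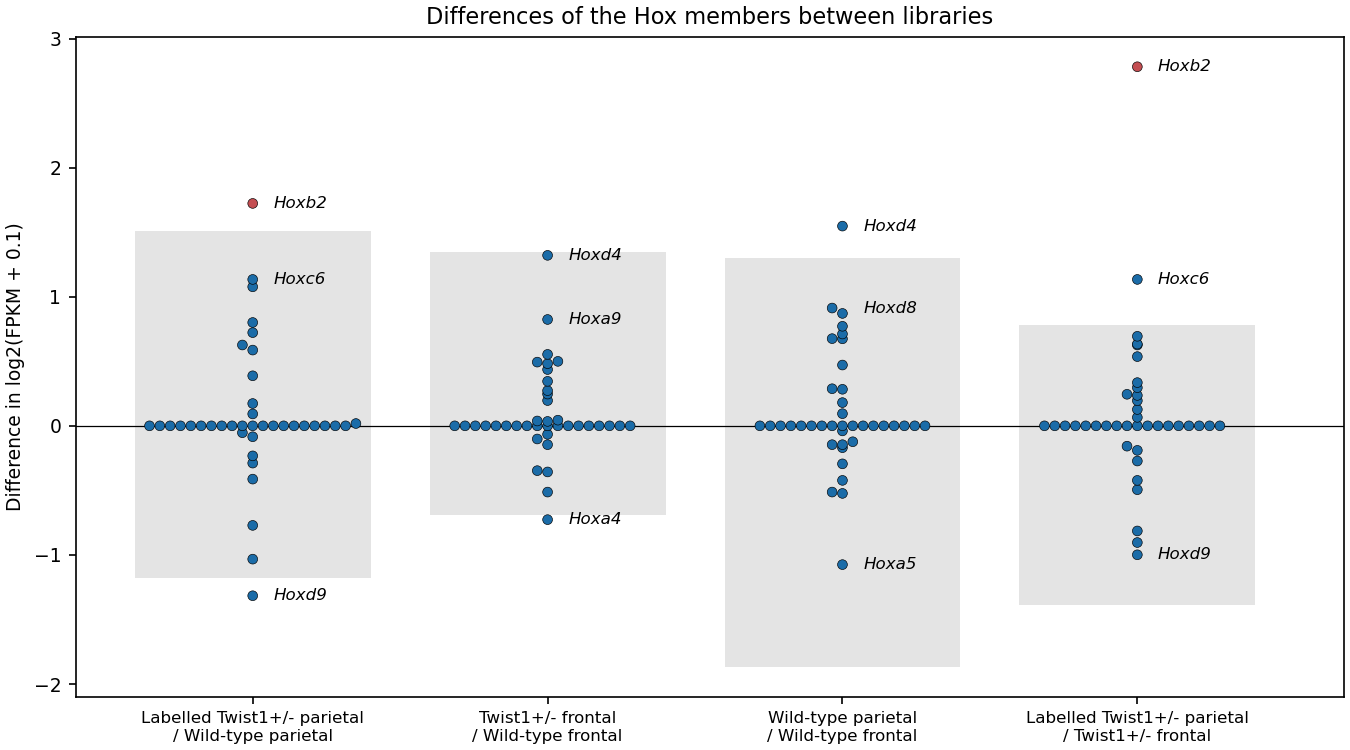
Difference in log2(FPKM + 0.1) of each of the 39 Hox genes in the 4 comparisons, with 1 point per gene, red points for members called over 3-fold with 1 FPKM in the higher library and grey boxes from the 5th to the 95th percentile of all genes. *Hoxb2* is the only red point, at 1.72 and 2.78 in the comparisons that hold the parietal library labelled *Twist1*+/-, and the medians of all 4 columns are 0.

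Hox proteins bind DNA together with cofactors of the TALE homeodomain class, the Pbx, Meis and Pknox (Prep) proteins. Of 8 TALE genes analysed, 8, 7, 8 and 8 were at or above 1 FPKM in the wild-type frontal, wild-type parietal, *Twist1*+/- frontal and the parietal library labelled *Twist1*+/-, with sums of 53.3 to 68.9 FPKM. Their summed level was thus many times the summed level of the Hox genes in each library. *Pbx2* was at 16.7, 16.9, 19.6 and 24.3 FPKM in that order. *Pbx3* ranged from 8.18 to 13.5 FPKM, *Pbx4* from 0.884 to 2.02 and *Meis1* from 2.65 to 2.97. *Meis3*, like *Hoxd8*, was higher in both parietal libraries, with 9.75 and 9.63 FPKM in the wild-type and *Twist1*+/- frontal libraries and 13.2 and 14.8 FPKM in the parietal ones. *Meis2* went the other way, with 9.09 and 9.25 FPKM in the frontal libraries, 2.56 in the wild-type parietal and 4.94 in the parietal library labelled *Twist1*+/-, and was the only one of these 8 called in any comparison, 3.55-fold lower in the wild-type parietal than in the wild-type frontal library, a comparison in which 13.3% of all genes were called. *Pknox1* ranged from 7.13 to 11.6 FPKM and *Pknox2* from 1.46 to 2.70 FPKM.

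**Figure D4:**
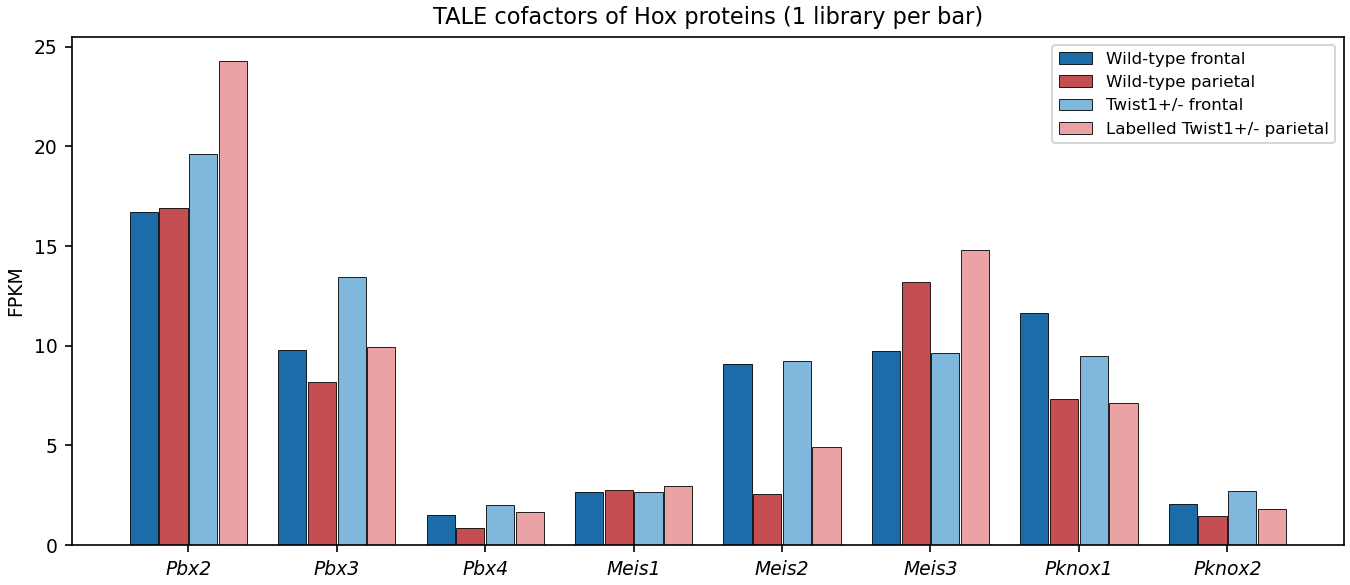
FPKM of 8 TALE cofactor genes, with 1 bar per library and no error since each bar is 1 library. *Meis2* is lower in both parietal libraries than in both frontal ones, and *Meis3* is higher in them.

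The genes known to switch on Hox clusters in the embryo divided by kind. *Cdx1*, *Cdx2* and *Cdx4*, caudal factors that act upstream of Hox genes in the trunk, are listed at 0 in all 4 libraries. Components of the retinoic acid pathway were measured. The list of 11 genes also holds the *Cdx* genes and *Gdf11*, and 6 of the 11 reached 1 FPKM in each library, *Gdf11* among them. The receptor *Rarg* was at 27.9, 24.4, 31.8 and 51.1 FPKM in the wild-type frontal, wild-type parietal, *Twist1*+/- frontal and the parietal library labelled *Twist1*+/-, and the receptor *Rara* at 7.66, 9.55, 10.3 and 13.5 FPKM. *Aldh1a2*, which makes retinoic acid, was at 4.07 to 11.2 FPKM, and *Cyp26b1*, which degrades it, at 5.11 to 9.78 FPKM. The receptor *Rarb*, itself a known target of retinoic acid, was at 1.51, 4.69, 2.07 and 1.23 FPKM. It was called higher in the wild-type parietal than in the wild-type frontal library, 3.11-fold, and lower in the parietal library labelled *Twist1*+/- than in the wild-type parietal library, 3.82-fold, and was the only gene of the list called in these comparisons, in which 13.3% and 8.19% of all genes were.

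Chromatin regulators of Hox clusters were expressed in every library, and none of the 26 listed was called in any comparison, against 8.19% of all genes between the parietal bones, 3.89% between the frontal bones, 13.3% between the wild-type bones and 4.09% between the *Twist1*+/- bones. Of the trithorax list, which maintains active Hox genes, all 9 were at or above 1 FPKM, with *Psip1* at 20.1 to 36.8 FPKM, *Wdr5* at 14.4 to 21.2 and *Men1* at 9.08 to 16.3. Of the core and accessory subunits of Polycomb repressive complex 2, which methylates histone H3 at silent Hox genes, all 5 were, with *Ezh2* at 32.5, 16.7, 24.5 and 21.3 FPKM and *Suz12* at 23.5, 13.4, 21.7 and 14.6 FPKM in the order used above. All 12 Polycomb repressive complex 1 genes were, with *Phc2* at 36.1 to 60.7 FPKM, *Cbx6* at 26.9 to 41.7 and *Rnf2* at 16.7 to 29.8. The trithorax and complex 2 lists were lowest in the wild-type parietal library, where their median differences from wild-type frontal bone in log2(FPKM + 0.1) were -0.68 and -0.70, beside a median of 0 over all genes. Summed markers of marrow cells were also lowest there, with median differences of -2.19 for erythroid cells, -1.40 for B lineage, -1.28 for blood progenitors and -1.0 for neutrophils. The erythroid sum had the same order over the libraries as both lists. Sums for neurons and glia and for meninges were lowest there as well, with median differences of -2.96 and -2.54. Some single markers went the other way. *Cd34*, *Mecom*, *Vpreb1* and *Igll1* were higher in the wild-type parietal than in the wild-type frontal library. The part of any of these cells in the 2 lists was not tested. The complex 1 list was higher in the parietal library labelled *Twist1*+/- than in the wild-type parietal library by a median of 0.60 on that scale. In that comparison the ratios of all genes rose with GC content, from a median of -0.59 in the lowest of 20 GC groups to 0.70 in the highest, and the part of GC content in this list was not tested.

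Of the 8 genes listed beside the clusters, 4, 4, 5 and 5 were at or above 1 FPKM in the wild-type frontal, wild-type parietal, *Twist1*+/- frontal and the parietal library labelled *Twist1*+/-. *Mtx2*, beside *Hoxd*, was at 22.6 to 53.8 FPKM, *Skap2*, beside *Hoxa*, at 22.9 to 36.2, *Calcoco1*, on the *Hoxc* side, at 14.9 to 19 and *Smug1*, also there, at 3.74 to 6.09. The homeobox genes *Evx1* and *Evx2*, at the posterior ends of *Hoxa* and *Hoxd*, are listed at 0 in all libraries, and *Skap1* was at 0.294 to 0.731 FPKM. *Ttll6*, on the *Hoxb* side, was at 0.939, 0.0425, 2.51 and 1.02 FPKM from wild-type frontal and parietal to the *Twist1*+/- libraries, and was the only one of the 8 flanking genes called, 24.1-fold higher in the parietal library labelled *Twist1*+/- than in the wild-type parietal library, where 8.19% of all genes were called. Of 12 noncoding transcripts of the clusters 9 were measured, among them *Hotair*, *Hottip*, *Mir10a* and *Mir196b*, and all 9 are listed at 0 in every library. For the microRNA genes a poly(A) library does not measure the mature molecule.

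Most of the homeobox and other factors listed for their known roles in patterning the head and the skull vault were above 1 FPKM. Of 20 such genes, 16, 15, 17 and 16 reached 1 FPKM in the wild-type frontal, wild-type parietal, *Twist1*+/- frontal and the parietal library labelled *Twist1*+/-, with sums of 187, 296, 220 and 315 FPKM. *Prrx1*, *Dlx5*, *Prrx2* and *Foxc1* had the highest means, with *Prrx1* at 41.6 to 66.1 FPKM and *Foxc1* at 14 to 20.4 FPKM. *Pax3* and *Tfap2a* were below 1 FPKM in every library. Of the 17 that reached 1 FPKM between the parietal bones, 3 were called higher (*Otx1*, *Otx2* and *Emx2*) and 1 lower (*Alx1*), against 8.19% of all genes in either direction. Between the frontal bones 2 of 17 were called, both higher (*Otx1* and *Otx2*), against 3.89%, and 3 of 17 were higher in the wild-type parietal than in the wild-type frontal library (*Msx2*, *Prrx2* and *Lmx1b*), against 13.3%. Between the *Twist1*+/- bones, *Prrx2* was called higher and *Alx1* lower in the parietal library labelled *Twist1*+/-, against 4.09% of all genes. With a pseudocount of 1 FPKM, 0 of the 6 genes called between the parietal bones over all these lists stayed over 3-fold. *Otx2*, an anterior head factor, was at 1.99, 1.08, 9.53 and 3.25 FPKM in the order used above, and *Prrx2* at 16.2, 62.6, 12.1 and 41.4 FPKM. *Prrx2* was thus higher in both parietal libraries, as *Hoxd8* was, and at a level many times that of *Hoxd8*.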

How the data were processed

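Stranded libraries were prepared from poly(A)-selected RNA and read from 1 end. The authors aligned the reads to mm9 with STAR 2.4.2a, took the annotation from iGenomes, and deposited FPKM values from Cuffdiff (Cufflinks 2.2.1), 1 per gene and library. Scaling within Cuffdiff was not given in the sources used here. Read totals per library are not in these values, so no counting interval is given. Libraries were grouped by their labels.

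Members were taken by symbol, and the members and gene lists were chosen with earlier results of these data known. Ratios of FPKM were formed in 4 comparisons, with a pseudocount of 0.1 FPKM for differences on the log2 scale. Named members were those at or above 1 FPKM in a library, those called, the highest of each cluster, and those listed at 0 in 1 library but at or above 0.1 FPKM in another. From the other lists, the TALE genes, those called and up to 4 with the highest mean were named. 1 listed gene is not reported here. What 1 read is worth was read from the first peak of FPKM times transcript length. A pairwise reading of low values, planned for depth, disagreed for the wild-type bones and was not used for numbers of reads. Gene positions, lengths and GC content came from GENCODE M1 (mm9), and promoter windows from RefSeq (GRCm38.p6). Alternatives were other floors, folds, pseudocounts, scalings and a GC correction. The call was tested on simulated data, in which all 200 genes changed 6-fold in a simulation from wild-type parietal bone were recovered among 23946. The changed genes were drawn from levels above that of every Hox member in that library, and little noise was added. The simulation therefore does not show how the call performs at the levels of the Hox genes. Python 3.11.15, numpy 2.4.6, pandas 2.3.3 and matplotlib 3.10.9 were used.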

Additional observations from a re-analysis of the deposited data

Results flagged for a closer look

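*Hoxb2* moved in opposite directions with the *Twist1*+/- label in the parietal and the frontal bone. Its log2 ratio to wild type was 2.10 in the parietal bone and -0.79 in the frontal bone, a difference of 2.89. With 1 library per group this difference was not tested, and the frontal values rest on about 13.7 reads in wild-type and 5.99 reads in *Twist1*+/- bone.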

How the results depend on the processing

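No paired analysis was possible because each genotype and bone has 1 library, and for the same reason no replicate could be left out. The comparisons are given in the order parietal by genotype, frontal by genotype, wild-type parietal against frontal, and *Twist1*+/- parietal against frontal. The count of members called was 1, 0, 0 and 1. With a floor of 0.1 FPKM it was 4, 1, 4 and 2. With no floor and both values above 0 it was 2, 5 and 3 in the last 3. With a pseudocount of 1 FPKM it was 0 in the parietal comparison and in the last, since that pseudocount exceeds the level of *Hoxb2* in the lower library. The median difference of 0 became 0.34, 0.30 and 0.27 in the parietal comparison, the frontal comparison and that of the *Twist1*+/- bones when only members with a mean of at least 0.1 FPKM were kept, which leaves fewer members, and -0.12 and 0.12 in the parietal comparison and that of the wild-type bones when the median of genes near in GC content was taken off. The ratio between the parietal bones rose with GC content over all genes (Spearman's rho 0.55). Many members below 0.1 FPKM are within a few reads of 0. Without its highest member the summed Hox FPKM was 1.57, 1.98 and 2.25 in the wild-type frontal, wild-type parietal and *Twist1*+/- frontal bone. Without *Hoxd8* and *Hoxb2*, an alternative chosen after seeing the data, it was 1.47, 1.74, 2.19 and 2.38 in these and the parietal library labelled *Twist1*+/-. With a threshold of 0.1 FPKM, 7, 7, 6 and 9 members reached it. The number of cofactor, regulator and patterning genes called was 6, 2, 5 and 2, and 0, 1, 1 and 1 with a pseudocount of 1 FPKM. Leaving out a library moved the members at 0 throughout from 15 to 16 and those above 0 throughout from 12 to between 12 and 13. Of 95 recomputed ratios of single members, 83 kept their direction and their side of 3-fold, 7 fell below 3-fold, 1 rose above it and 4 changed sign, none of them over 3-fold. Those 4 were *Hoxa9* between the parietal bones, from -0.12 to 0.27 with scaling to *Gapdh* and to 0.07 with the GC correction, *Hoxd8* between the parietal bones, from -0.25 to 0.15 with scaling to *Gapdh*, and *Hoxa9* between the wild-type bones, from 0.13 to -0.31 with scaling to *Gapdh*.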

Other observations

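*Hoxd3os1*, a noncoding gene of the *Hoxd* cluster that was looked up after its values were seen, was at 0 FPKM in the wild-type frontal, 0.183 in the wild-type parietal, 0.0356 in the *Twist1*+/- frontal and 0.0963 in the parietal library labelled *Twist1*+/-.

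Reads shared between neighbouring Hox genes concern 6 members beyond a few bases. *Hoxb7* and *Hoxb8* shared 26.5% and 36.1% of their stretches of 75 bases with each other, *Hoxd3* and *Hoxd4* 19.7% and 40.6%, and *Hoxa2* and *Hoxa3* 8.30% and 3.67%. Levels of these 6 are uncertain to that extent. In all, 18 of the 39 members overlap an exon of another annotated gene, among them *Hoxa9*, *Hoxb2*, *Hoxb4* and *Hoxb5*, and *Hoxd8* does not.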
